A study of Mus musculus with 10 samples.

Results

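A set of 35 genes that neurons of most kinds switch on as they differentiate was followed in the embryonic cortex of wild-type mice and of mice labelled as knockouts of the transcription factor Emx2. The genes were taken by symbol from a list of general neuronal transcription factors, RNA-binding proteins, cytoskeletal and growth cone proteins, adhesion molecules and synaptic proteins. All 35 were found among the 56748 gene identifiers of the count tables. RNA was sequenced from cortex, the dorsal telencephalon, of mouse embryos at embryonic stage E12.5, 5 libraries labelled Emx2 KO (knockout) and 5 labelled WT (wild type). The labels give no strain, sex, targeted allele or number of embryos per library, and no treatment other than the genotype is named. Nothing says that the libraries came from separate embryos, so p-values measure only how far these libraries scatter, and some of that scatter may be technical.

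As a neural progenitor becomes a neuron it leaves the cell cycle and builds an axon and dendrites from neuronal tubulins, microtubule-binding proteins and intermediate filaments. RNA-binding proteins of the ELAVL, RBFOX and CELF families change how its transcripts are spliced and how long they last, and adhesion molecules guide its axon. Synaptic vesicle genes are already transcribed before synapses form. The repressor REST holds many of these genes silent outside neurons. At E12.5 the cortex is mainly dividing progenitors, with the first layers of neurons above them.

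Total counts per library ran from 9720840 to 35674113. Levels are given as CPM, the counts of a gene per 1000000 counts of the library after its total was scaled by edgeR's TMM factor, and n = 5 libraries per genotype throughout. Emx2 itself stood at 123 ± 21.1 CPM in knockout and 185 ± 12.8 CPM in wild type (SD), lower in 5 of 5 knockout libraries but far from absent (log2 fold change -0.59 ± 0.11 SE, edgeR quasi-likelihood test, adjusted p = 0.00271). These counts cover the gene as a whole, and which part was deleted is not given. Of 18163 genes tested, 2345 were higher and 1694 lower in knockout. The balance of directions turned with the scaling, to 1899 higher and 2245 lower with upper-quartile factors and, on total counts without factors, to 1793 higher and 2457 lower. Libraries fell into a large class of over 20000000 counts (knockout 1, 2 and 4, wild type 3 and 4) and a small class, and the sample titles carry 3 codes whose meaning the labels do not give. Within each code the knockout and wild-type libraries were of opposite size class.

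Several libraries stood apart in the level of the neuronal genes. Knockout 3 was the highest knockout library for 28 of the 35 genes and knockout 1 the lowest for 23. Among wild types, library 2 was the highest for 29 genes and library 1 the lowest for 27. The CPM values of the 35 genes summed to 13829, 14851, 18066, 15145 and 15039 in knockout 1 to 5, and to 9931, 14214, 12557, 12258 and 11097 in wild type 1 to 5. So 4 of the 5 knockout sums lay above every wild-type sum, while knockout 1 lay below wild type 2. In bulk tissue a larger number of neurons and more RNA per neuron cannot be told apart.

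All 35 genes passed the filter on low counts, and 18 were higher and 0 lower in knockout at an adjusted p under 0.05 (edgeR quasi-likelihood test, adjusted over all genes tested). The count lower was 0 also at an unadjusted p under 0.05, with DESeq2 (23 higher) and with limma-voom (20 higher). Over all genes tested, edgeR called 12.9% higher and 9.33% lower at an adjusted p under 0.05, 22.2% in all. Of the same 18163 genes DESeq2 called 2564 higher and 1961 lower, and limma-voom 2507 and 1899. The share of all genes at an unadjusted p under 0.05 is not given here. The fitted log2 fold change was above 0 for all 35, ranging from 0.07 (Elavl2 and Elavl4) to 0.97 (Stmn4) with a median of 0.49. The median over all genes tested was -0.01, and 48.8% of them had a value above 0. For 12 of the 35 genes every knockout library was above every wild-type library, a separation found for 9.63% of all genes. With upper-quartile scaling the median of the 35 was 0.45 and 18 genes passed, and with total counts alone it was 0.44 and 17 passed. Over all 18163 genes these fits called 1899 and 1793 higher, with medians of -0.04 and -0.05.

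**Figure D1:**
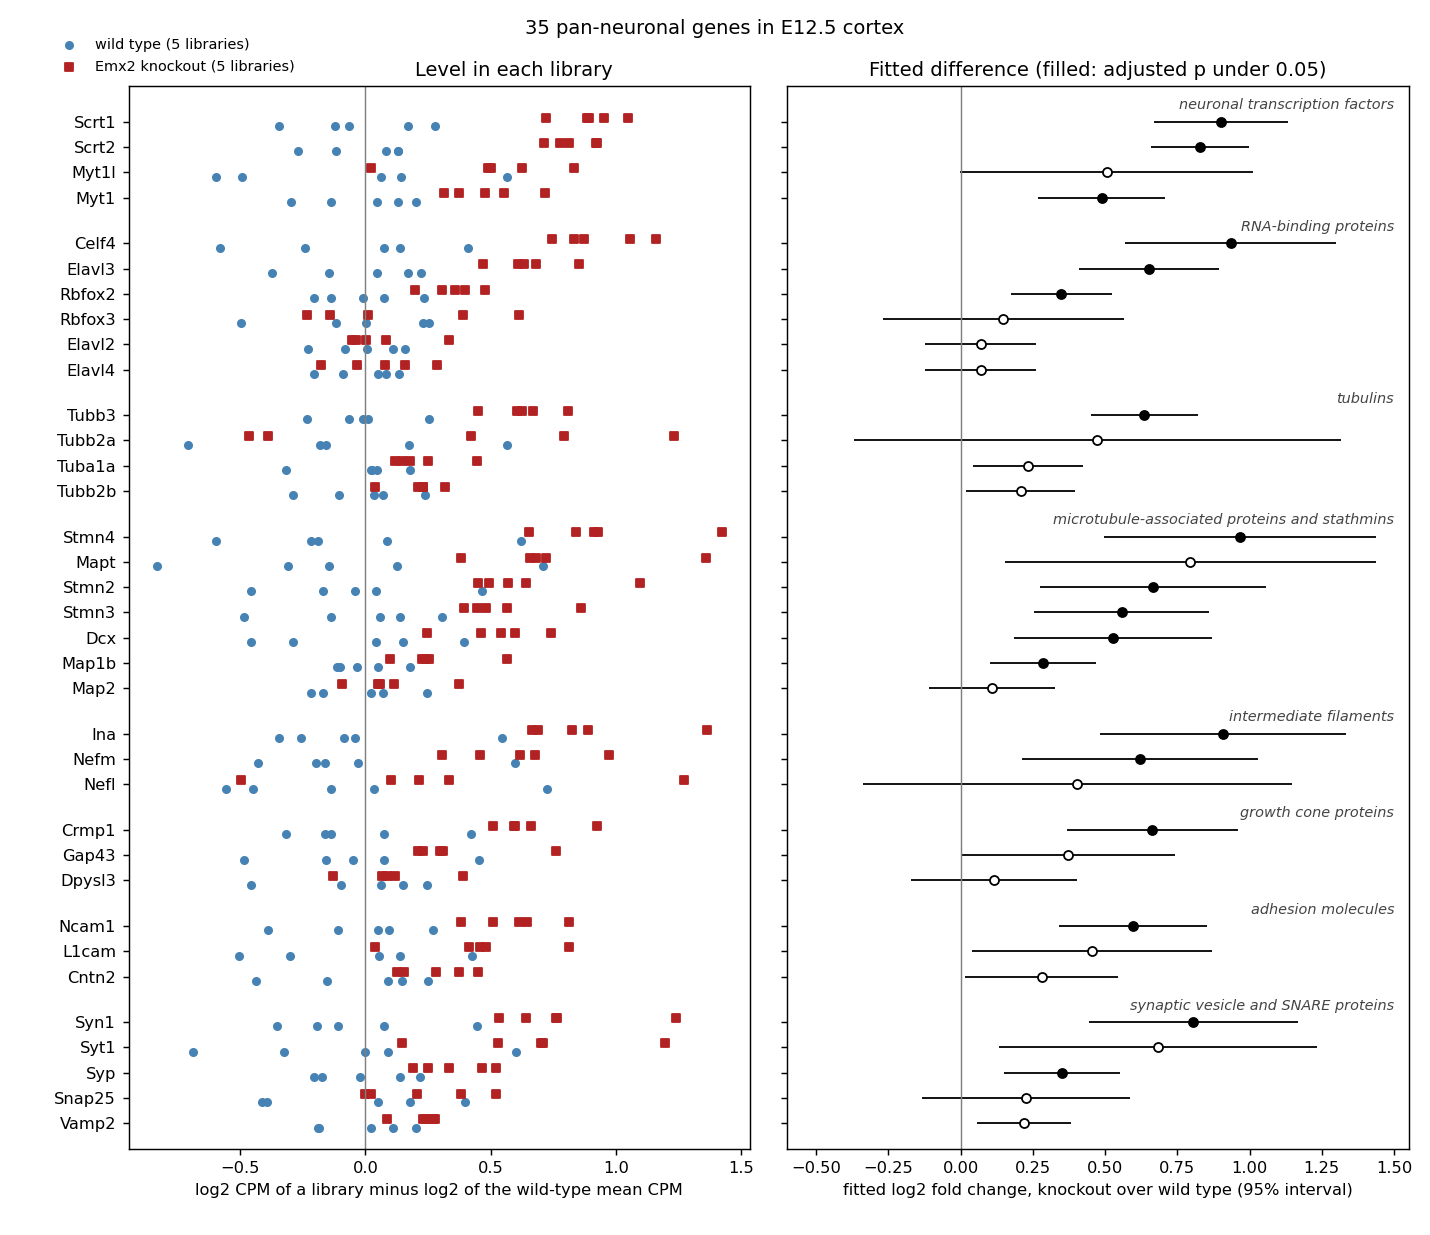
Left, log2 CPM of each of the 35 genes in each library minus the log2 of the wild-type mean CPM, with blue circles for 5 wild-type and red squares for 5 knockout libraries. Right, fitted log2 fold change with its 95% interval, filled where the adjusted p was under 0.05. The 18 filled points all lie to the right of 0, and in each of the 8 groups of genes some members rose while others did not pass.

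Promoter windows are shown first for the genes that carry the left part of the REST recognition element, since the set includes textbook REST targets and Rest itself was measured in these libraries. The RefSeq table of start-site windows (mouse build GRCm38.p6) holds 38 windows for 20 of the 35 genes, and the other 15 have no entry. In the 250 bases before each start, CAGCACC, that left part, was found on either strand in 3 of 38 windows (7.89%), those of Tubb3, Tubb2a and Syn1, and in 5.73% of all 32851 windows. The 120 bases around the first match are printed 5′ to 3′ along the gene, with these letters or their reverse complement in capitals. They lie at chr8:123411375-123411494 (plus strand) for Tubb3, chr13:34078009-34078128 (minus strand) for Tubb2a and chrX:20921049-20921168 (minus strand) for Syn1.
Tubb3: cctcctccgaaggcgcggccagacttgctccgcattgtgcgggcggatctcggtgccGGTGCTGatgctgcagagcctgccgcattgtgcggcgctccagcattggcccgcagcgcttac
Tubb2a: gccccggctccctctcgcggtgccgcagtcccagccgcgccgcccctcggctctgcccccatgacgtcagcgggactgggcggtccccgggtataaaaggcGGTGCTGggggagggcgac
Syn1: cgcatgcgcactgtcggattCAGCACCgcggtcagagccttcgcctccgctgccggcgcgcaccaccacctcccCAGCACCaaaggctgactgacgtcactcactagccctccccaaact
The Syn1 window holds the letters at 2 places. Tubb3 and Syn1 rose in knockout and Tubb2a did not pass, as given with their values. The right part of the element, GGACAG, was in 18.4% of the 38 windows against 18.7% of all windows. Both parts in tandem, searched only as an exact match at a fixed spacing, were in 0 of 38 windows and in 11 of all 32851. A match this rare cannot show whether the 38 windows lack a whole element, and elements with a changed letter were not searched. In the printed Syn1 window the first left part is followed at that spacing by letters that differ from the right part in 1 place. In all, 13 motifs were searched. Among E-boxes, the sites of proneural and Snail-type factors, CAGATG was in 26.3% of the members' windows against 14.4% of all, CAGCTG in 15.8% against 13.0% and CAGGTG in 15.8% against 17.2%. The CCAAT box was in 52.6% against 33.8% and the GC box GGGCGG in 50% against 32.7%. Several windows belong to 1 gene, so these shares are a description, and a match is neither a site of binding nor a cause.

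Of the 4 neuronal transcription factors 3 rose, with a median log2 fold change of 0.67 over the group. Scrt2, a Snail-type zinc finger repressor of newborn neurons, measured 220, 214, 205, 237 and 237 CPM in knockout 1 to 5 and 104, 137, 137, 133 and 115 CPM in wild type 1 to 5. The groups were far apart, and knockout 3, the highest library for most of the 35 genes, was the lowest knockout library here. The log2 fold change was 0.83 ± 0.08 (SE, edgeR adjusted p = 2.93e-05), and Scrt2 was the one gene of the 35 that passed in all 26 alternative fits, each single size class and title code fitted included. Its relative Scrt1, also a neuronal Snail-type factor, measured 119, 119, 124, 133 and 106 CPM in knockout and 50.5, 77.8, 72.1, 61.4 and 59.0 CPM in wild type, again without overlap. Scrt1 rose 1.87-fold (log2 fold change 0.90 ± 0.11, edgeR adjusted p = 0.00018). Myt1, a zinc finger factor that favours the neuronal fate, also rose, at 140 ± 15.6 against 99.4 ± 13.6 CPM (log2 fold change 0.49 ± 0.10, edgeR adjusted p = 0.00523). Myt1l, its neuron-restricted relative that represses non-neuronal genes, had a log2 fold change of nearly the same size, 0.51, but its 95% interval ran from -0.00 to 1.01 and it did not pass (edgeR adjusted p = 0.149). Wild type 2, at 86.6 CPM, lay above 3 of the 5 knockout libraries for Myt1l. With each library left out in turn it ranged from 0.39 to 0.67 and passed in 1 of 10 fits, that without wild type 2 (edgeR adjusted p from 0.0373 to 0.28).

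The 6 RNA-binding proteins divided into 3 that rose and 3 with intervals that held 0, and their median log2 fold change was 0.25. Celf4, a regulator of splicing and of mRNA stability and translation in neurons, measured 147, 161, 196, 183 and 157 CPM in knockout and 74.4, 117, 92.5, 96.7 and 58.8 CPM in wild type. Every knockout library was above every wild-type library, a 1.91-fold rise (log2 fold change 0.93 ± 0.16, edgeR adjusted p = 0.00267). Elavl3 (HuC), a neuronal ELAV-type protein that stabilises and splices transcripts, measured 459, 505, 598, 532 and 514 CPM in knockout and 256, 386, 373, 342 and 299 CPM in wild type, with no overlap and a 1.57-fold rise (edgeR adjusted p = 0.00167). The other two neuronal ELAV genes did not pass. Elavl2 (HuB), which begins already in progenitors about to leave the cycle, measured 196, 202, 214, 194 and 254 CPM in knockout and 172, 203, 225, 218 and 191 CPM in wild type. Elavl4 (HuD), found in maturing neurons, measured 193, 229, 243, 212 and 265 CPM in knockout and 189, 238, 230, 225 and 205 CPM in wild type. The groups overlapped widely for both, and each log2 fold change was 0.07 ± 0.09 with a 95% interval from -0.12 to 0.26. Rbfox2, a splicing factor also present outside neurons, rose 1.27-fold (480 ± 34.5 against 376 ± 46.1 CPM, edgeR adjusted p = 0.00818). Rbfox3, whose product NeuN marks more mature neurons, was at 36.2 ± 9.35 against 32.3 ± 6.45 CPM and did not pass (log2 fold change 0.15, 95% interval -0.27 to 0.56).

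Among the 4 tubulins only Tubb3 passed the test, and the group median was 0.35 on the log2 scale. Tubb3, the class III beta-tubulin used as the standard marker of neurons, measured 1114, 1131, 1283, 1166 and 1002 CPM in knockout 1 to 5. Wild type 1 to 5 measured 624, 874, 739, 727 and 700 CPM, so the highest wild-type library was still below the lowest knockout library. The log2 fold change was 0.64 ± 0.09 (edgeR adjusted p = 0.000291). Tuba1a, the main alpha-tubulin of young neurons, measured 1968 ± 187 against 1675 ± 201 CPM and did not pass over all libraries (log2 fold change 0.23, edgeR adjusted p = 0.0803). Tubb2b, a beta-tubulin of migrating neurons and progenitors, measured 1210 ± 83.0 against 1048 ± 142 CPM (log2 fold change 0.21, edgeR adjusted p = 0.112). Each passed in 1 of 10 fits that left out a library, that without wild type 2, at 0.28 (edgeR adjusted p = 0.0443) and 0.27 (edgeR adjusted p = 0.0276), and over these fits they went as low as 0.16 and 0.14. Tubb2a, a close copy of Tubb2b, scattered from 75.7 to 246 CPM in knockout and from 63.9 to 155 CPM in wild type, and 2 knockout libraries lay above every wild type while 1 wild type lay below every knockout. Reads shared by Tubb2a and Tubb2b may have been divided between them in a way the sources used here do not give, so both values are uncertain. Per kilobase of exon, Tuba1a was the highest of the 35 in wild type at 929 ± 112 CPM per kb, followed by Tubb2b at 457 ± 61.7, Tubb3 at 392 ± 48.5 and Map1b at 168 ± 14.5. The ranges of 1 SD around Tubb2b and Tubb3 overlapped, so their order is not set, while Tuba1a and Map1b lay clear of both.

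Of 7 microtubule-associated proteins and stathmins 5 rose, with a median log2 fold change of 0.56. Stathmins bind free tubulin and destabilise microtubules in growing neurites. Stmn4 measured 35.9, 36.3, 51.1, 34.1 and 29.9 CPM in knockout and 16.4, 29.3, 20.2, 16.7 and 12.6 CPM in wild type, which kept the groups just apart. It had the largest fitted change of the set, 0.97 ± 0.21 on the log2 scale (edgeR adjusted p = 0.00857). Stmn2 rose 1.59-fold (184 ± 36.4 against 116 ± 27.9 CPM, edgeR adjusted p = 0.0219) and Stmn3 rose 1.47-fold (77.8 ± 10.6 against 52.8 ± 10.5 CPM, edgeR adjusted p = 0.0146). Dcx, doublecortin, which binds microtubules in migrating neurons, measured 979, 1137, 1380, 1203 and 1251 CPM in knockout and 601, 1085, 917, 851 and 676 CPM in wild type. Knockout 1 lay within the wild-type range, and the log2 fold change was 0.53 ± 0.15 (edgeR adjusted p = 0.0338). Map1b, a microtubule-binding protein of growing axons, rose 1.22-fold (3249 ± 411 against 2667 ± 229 CPM, edgeR adjusted p = 0.0303). Mapt, encoding the axonal protein tau, measured 179, 217, 353, 226 and 220 CPM in knockout and 77.2, 224, 150, 124 and 111 CPM in wild type. Its log2 fold change of 0.79 was among the larger ones, but knockout 3 and wild type 2 were both far above their groups and it did not pass (95% interval 0.15 to 1.44, edgeR adjusted p = 0.0789). Of the 10 fits that left out a library Mapt passed in 1, that without wild type 2 (1.03, edgeR adjusted p = 0.0162), and over them it went as low as 0.61, with edgeR adjusted p up to 0.163. Over all libraries Mapt passed with DESeq2 (adjusted p = 0.0446), with limma-voom (adjusted p = 0.0261) and with edgeR without robust estimation (adjusted p = 0.0407). Map2, the dendritic and cell-body counterpart, was at 1004 ± 123 against 931 ± 122 CPM with a 95% interval from -0.11 to 0.33.

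**Figure D2:**
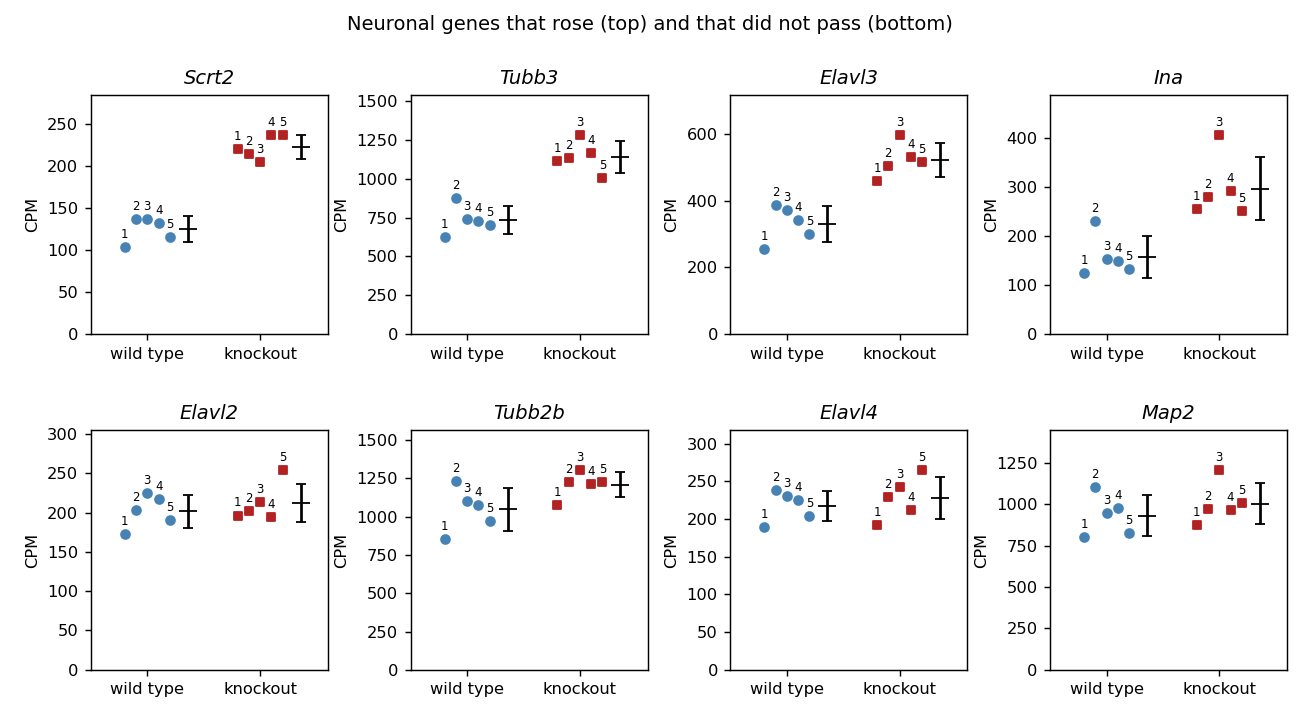
CPM of 8 genes in each library, blue circles for wild type and red squares for knockout, numbered by replicate, with the mean and SD beside each group (n = 5). Scrt2, Tubb3, Elavl3 and Ina, in the top row, have no knockout library within the wild-type range. Elavl2, Tubb2b, Elavl4 and Map2, in the bottom row, overlap between the genotypes.

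Of 3 intermediate filament genes 2 rose, with a median log2 fold change of 0.62. Ina, alpha-internexin, the first neurofilament-type protein of young neurons, measured 255, 280, 407, 293 and 251 CPM in knockout and 124, 231, 154, 149 and 132 CPM in wild type. The groups did not overlap, although knockout 3 and wild type 2 were each well above the rest of their group, and the log2 fold change was 0.91 ± 0.19 (edgeR adjusted p = 0.00775). Nefm, the medium neurofilament subunit, was at 35.3 ± 6.29 against 22.9 ± 6.84 CPM (log2 fold change 0.62 ± 0.18, edgeR adjusted p = 0.0349). Nefl, the light subunit, was the lowest of the 35 genes per kilobase in wild type at 2.11 ± 0.83 CPM per kb and did not pass (log2 fold change 0.40, 95% interval -0.34 to 1.15). Nefl and Nefm overlap on opposite strands in the GENCODE annotation of GRCm38, and Ina overlaps Nt5c2 (mean 49.4 CPM) in the same way. No source used here gives the strand setting of the counting, so reads from such pairs cannot be told apart.

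Growth cone and adhesion genes each had 1 of 3 members that rose. Crmp1, a collapsin response mediator that carries semaphorin signals to the cytoskeleton, measured 270, 286, 360, 299 and 285 CPM in knockout and 152, 254, 200, 172 and 169 CPM in wild type, with no overlap (log2 fold change 0.66 ± 0.13, edgeR adjusted p = 0.00532). Dpysl3, a family member with the same kind of role, was at 921 ± 122 against 849 ± 150 CPM, with a 95% interval from -0.17 to 0.40. Gap43, a membrane protein of growing axon tips, was at 102 ± 17.6 against 78.5 ± 18.9 CPM and did not pass over all libraries (log2 fold change 0.37, edgeR adjusted p = 0.144). With each library left out in turn Gap43 ranged from 0.26 to 0.50 and passed in 1 of 10 fits, that without wild type 2 (edgeR adjusted p from 0.026 to 0.28). Ncam1, the neural cell adhesion molecule, measured 191, 208, 257, 224 and 229 CPM in knockout and 112, 177, 156, 152 and 136 CPM in wild type, again without overlap (log2 fold change 0.60 ± 0.12, edgeR adjusted p = 0.00412). L1cam, which promotes axon growth and bundling, had a log2 fold change of 0.46 (210 ± 39.6 against 153 ± 38.3 CPM, edgeR adjusted p = 0.113), ranged from 0.35 to 0.58 with each library left out, and passed in 1 of 10 such fits, that without wild type 2 (edgeR adjusted p from 0.039 to 0.227). Cntn2, the early axonal glycoprotein TAG-1, was at 313 ± 29.9 against 258 ± 46.4 CPM and did not pass (log2 fold change 0.28, edgeR adjusted p = 0.128).

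Of 5 synaptic genes Syn1 and Syp rose. Syn1, synapsin, which tethers synaptic vesicles, measured 31.1, 36.4, 50.8, 36.4 and 33.4 CPM in knockout and 16.8, 29.2, 22.6, 18.8 and 19.9 CPM in wild type. The groups did not overlap, and the rise was 1.75-fold (log2 fold change 0.80 ± 0.16, edgeR adjusted p = 0.00521). Syn1 overlaps Araf, a more abundant gene (mean 142 CPM) on the opposite strand, so its value is uncertain in the same way. Syp, the vesicle membrane protein synaptophysin, rose 1.28-fold (40.2 ± 3.92 against 31.4 ± 4.05 CPM, edgeR adjusted p = 0.0166). Syt1, the calcium sensor of vesicle release, had a log2 fold change of 0.68 that did not pass (54.9 ± 14.6 against 33.9 ± 11.4 CPM, edgeR adjusted p = 0.0767). It passed in 2 of 10 fits that left out a library, without wild type 2 (0.87, edgeR adjusted p = 0.02) or knockout 1 (0.79, edgeR adjusted p = 0.0467), and went as low as 0.53, with edgeR adjusted p up to 0.155. Over all libraries Syt1 passed with DESeq2 (adjusted p = 0.0478), with limma-voom (adjusted p = 0.0479) and with edgeR without robust estimation (adjusted p = 0.0488). The SNARE proteins that drive vesicle fusion had the smallest fitted changes of the 5. Vamp2 was at 151 ± 7.97 against 130 ± 15.7 CPM (edgeR adjusted p = 0.0552, log2 fold change 0.22) and Snap25 at 36.2 ± 5.73 against 30.6 ± 7.47 CPM (95% interval of the log2 fold change -0.14 to 0.59). Vamp2 also passed in 2 of 10, without knockout 1 (0.25, edgeR adjusted p = 0.0372) or wild type 3 (0.27, edgeR adjusted p = 0.0156), and went as low as 0.17, with edgeR adjusted p up to 0.116.

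Leaving out each library in turn gave 14 to 25 genes higher, the lowest count without wild type 4 or 5 and the highest without wild type 2. Over all genes tested, 3062 to 3954 were then called in either direction, against 4039 with all libraries. Of the 18 genes that rose, 14 passed in all 10 of these fits. The exceptions were Stmn2, which passed in 8 (lost without wild type 4 or 5), Map1b in 5 (lost without knockout 2 or wild type 1, 3, 4 or 5), Dcx in 4 (lost without knockout 2, 3, 4 or 5 or wild type 4 or 5) and Nefm in 3 (passing without knockout 4, knockout 5 or wild type 2). Their largest edgeR adjusted p values over those fits were 0.0533, 0.0653, 0.0769 and 0.0852, and every log2 fold change stayed above 0, at 0.21 or more. Of the 14, Syp passed in the fewest of the 26 alternative fits, 20. It did not pass in either size class alone or with title code 241022 or 14922 alone. Nor did it pass with Y-linked expression as a covariate (edgeR adjusted p = 0.0501) or without knockout 3 and wild type 1 (edgeR adjusted p = 0.0591). With knockout 3 and wild type 1 both left out, 14 genes were higher and the median log2 fold change was 0.32. With knockout 1 and 3 and wild type 1 and 2 all left out, 23 were higher and the median was 0.46. These omissions were chosen after the levels were seen.

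Members of a family did not all change by the same amount. The ratio of 2 genes within a library does not depend on how libraries are scaled, and 5 ratios were compared with a two-sided exact permutation test, for which the smallest possible p is 0.00794. The log2 ratio of Tubb3 to Tubb2b was -0.09 ± 0.13 in knockout and -0.51 ± 0.05 in wild type (SD), higher in 5 of 5 knockout libraries than in any wild type (exact permutation test, adjusted p = 0.0198 over the 5 ratios). Reads shared by Tubb2a and Tubb2b leave this ratio uncertain too. The log2 ratio of Mapt to Map2, tau to the dendritic protein, was -2.10 ± 0.20 against -2.84 ± 0.40, also higher in 5 of 5 (exact permutation test, adjusted p = 0.0198). The remaining 3 ratios did not pass: Rbfox3 to Rbfox2 differed by -0.20 and Syt1 to Dcx by 0.17 (exact permutation test, adjusted p = 0.337 for each), and Elavl4 to Elavl2 by -0.004 (exact permutation test, adjusted p = 0.976). A comparison of Elavl3 with its relatives was added after the values were seen and is given without a test. The log2 ratio of Elavl3 to Elavl4 ran from 0.96 to 1.32 in knockout and from 0.44 to 0.70 in wild type, and that of Elavl3 to Elavl2 from 1.02 to 1.49 and from 0.57 to 0.93.

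Apart from genotype, the 35 genes varied together from library to library. Deviations of log2 CPM from the genotype mean had a median Pearson correlation of 0.76 over the 595 pairs of genes, with 482 pairs above 0.5 and 16 below 0. These correlations rest on 10 libraries that share the offsets of knockout 1 and 3 and wild type 1 and 2, and they are a description. They were computed for the 35 genes only, so whether other genes vary together as strongly was not tested. The median correlation of a gene with the others reached 0.87, for L1cam, Mapt, Gap43, Map2, Stmn2 and Crmp1. It was lowest for Tubb2a (0.03), then Elavl2 (0.45) and Scrt2 (0.55).

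Within the large libraries (3 knockout, 2 wild type) 18 of the 35 genes were higher, against 10.3% of all genes, and the median log2 fold change was 0.32. Elavl2 was lower there, at -0.17 (edgeR adjusted p = 0.0431). Within the small libraries (2 knockout, 3 wild type) 3 were higher, Scrt2, Myt1 and Vamp2, against 1.89% of all genes, and the median was 0.64 with all 35 above 0. In the large libraries 29 of the 35 were above 0. The 6 below 0 were Elavl2, Rbfox3 (-0.26), Elavl4 (-0.11), Dpysl3 (-0.10), Map2 (-0.04) and Snap25 (-0.04). With title code 241022 alone (2 libraries per genotype) 1 gene, Scrt2, was higher, against 1.34% of all genes, and 31 of the 35 were above 0. Title code 14922 alone gave 12 higher, against 5% of all genes, with 35 above 0. The difference of the genotype effect between these codes was tested in their 8 libraries, and 0 of 35 genes passed by edgeR, with 0 at an unadjusted p under 0.05 (smallest edgeR unadjusted p = 0.147, for Nefl) and 1.64% of all genes called. Genotype, size class and code are tied to each other in these libraries, so in such fits a genotype difference cannot be told apart from one of code or size. In the 8 libraries of the interaction test, a genotype effect that differs by code is the same contrast as size class. That test cannot tell these apart.

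**Figure D3:**
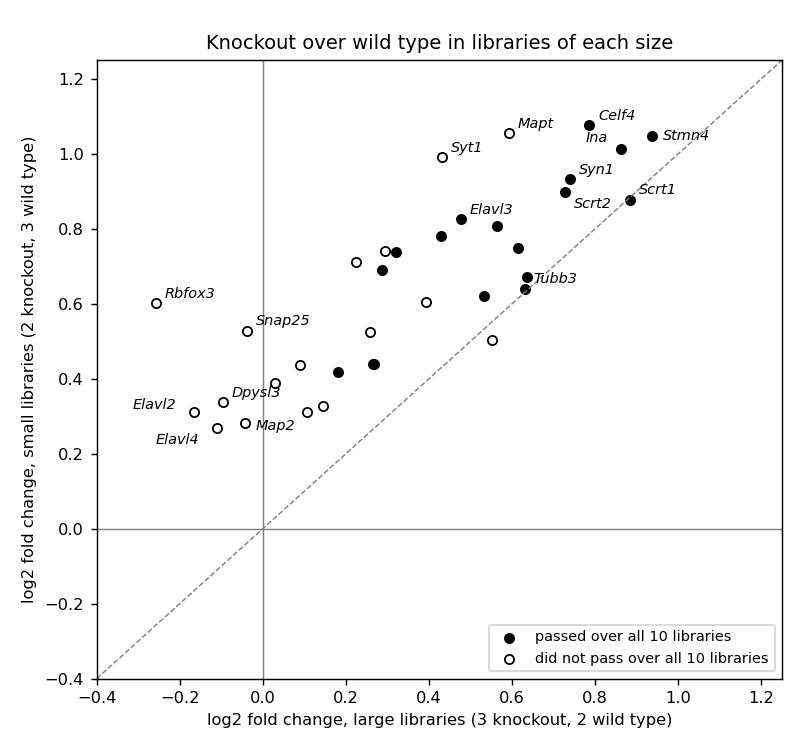
Log2 fold change of each of the 35 genes in the large libraries (horizontal) and in the small libraries (vertical), filled where the gene passed over all 10 libraries, with a dashed line of equal change. All points but Tubb2a and Scrt1 lie above the line, and the 6 left of 0, among them Elavl2, Elavl4 and Map2, were above 0 in the small libraries.

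Other neuronal genes of the same kinds were counted from 4 lists, 91 genes in all, of which 41 were higher and 5 lower (12.9% and 9.33% of all genes), with a median log2 fold change of 0.36. Those shares are for edgeR at an adjusted p under 0.05, and none is given for counts at an unadjusted p. The cytoskeleton and transport list had 21 of 28 higher and 0 lower by edgeR (0 at an unadjusted p under 0.05, 0 with DESeq2 and 1 with limma-voom), with a median of 0.41. In it Map1a, a microtubule-binding protein of maturing neurons, stood at 184 ± 14.6 against 117 ± 9.85 CPM (log2 fold change 0.65, edgeR adjusted p = 4.24e-05). Of 14 other RNA-binding genes 8 were higher and 1 lower. Nova2, a neuronal splicing factor, rose by 0.81 on the log2 scale, 156 ± 17.6 CPM in wild type and 274.5 ± 27.0 in knockout (edgeR adjusted p = 6.45e-05), while Khdrbs2, a STAR-family splicing factor, fell, 16.5 ± 1.29 CPM in wild type and 10.2 ± 1.27 in knockout (edgeR adjusted p = 0.000349). The synaptic list had 8 of 31 higher and 0 lower by edgeR (2 at an unadjusted p under 0.05, 2 with DESeq2 and 2 with limma-voom). Among those higher was Bsn, the presynaptic scaffold bassoon (log2 fold change 0.79, edgeR adjusted p = 0.00229). Of 18 adhesion genes 4 were higher and 4 lower. Nrcam, an axonal relative of L1cam, rose (log2 fold change 0.77, edgeR adjusted p = 0.0017), and Nlgn1, the postsynaptic adhesion protein neuroligin 1, fell (-0.74, edgeR adjusted p = 2.95e-05).

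Genes that repress the neuronal programme outside neurons were counted next, beside 12.9% of all genes called higher and 9.33% lower. Of 8 genes of REST, its corepressors and the splicing repressor PTBP1, 2 were higher and 1 lower, with a median log2 fold change of -0.02. Counts this small do not set the list apart from all genes. Rest itself was lower, at 94.5 ± 4.77 against 106 ± 7.02 CPM (log2 fold change -0.17 ± 0.05, edgeR adjusted p = 0.0337). Its corepressor partners Rcor2 and Ehmt2 were higher, by 0.29 (edgeR adjusted p = 0.000214) and 0.33 (edgeR adjusted p = 0.000187). Of 25 transcription factors of neuronal differentiation 12 were higher and 2 lower, with a median of 0.17. Insm1, a zinc finger factor of newborn neurons and intermediate progenitors, rose by 1.04 on the log2 scale, 105 ± 15.2 CPM in wild type and 217 ± 16.1 in knockout (edgeR adjusted p = 2.85e-05). Neurog1, a proneural factor, was nearly as much higher, 27.8 ± 3.39 CPM in wild type and 54.9 ± 5.21 in knockout (0.98 on the log2 scale, edgeR adjusted p = 2.20e-05).

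Markers of the cells around and among the neurons were summed in each library beside the 35 genes. Of all genes tested, 12.9% were called higher and 9.33% lower, the shares to set beside the counts that follow. Radial glia markers, genes of the dividing stem cells, were also higher, with 11 of 18 up and 2 down and sums of 4888 to 5471 CPM in knockout against 4213 to 4304 CPM in wild type. Notch1, the receptor that keeps these cells undifferentiated, rose by 0.61 on the log2 scale, 241 ± 5.77 CPM in wild type and 368 ± 11.8 in knockout (edgeR adjusted p = 5.67e-07). Intermediate progenitor markers had 6 of 12 higher and 1 lower, and that list holds Elavl2 and shares 4 genes with the factors above (Neurog1, Neurog2, Neurod4 and Insm1). Of 20 cell division genes 4 were higher and 2 lower, with a median of -0.01. Of 12 markers of early cortical projection neurons 2 were higher and 5 lower, and that list shares Bcl11b, Neurod2 and Neurod6 with the factors above. Tbr1, a factor of the earliest cortical neurons, rose by 0.67 on the log2 scale, 269.7 ± 21.5 CPM in wild type and 430.3 ± 37.2 in knockout (edgeR adjusted p = 3.55e-05), and Fezf2, a factor of deep-layer neurons, fell by 0.69, 134 ± 7.45 CPM in wild type and 82.8 ± 7.34 in knockout (edgeR adjusted p = 1.70e-05). Of 10 markers of Cajal-Retzius cells, the reelin-secreting neurons of the surface, 5 were lower and 2 higher. One of these markers, Ebf2, is also among the factors above.

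**Figure D4:**
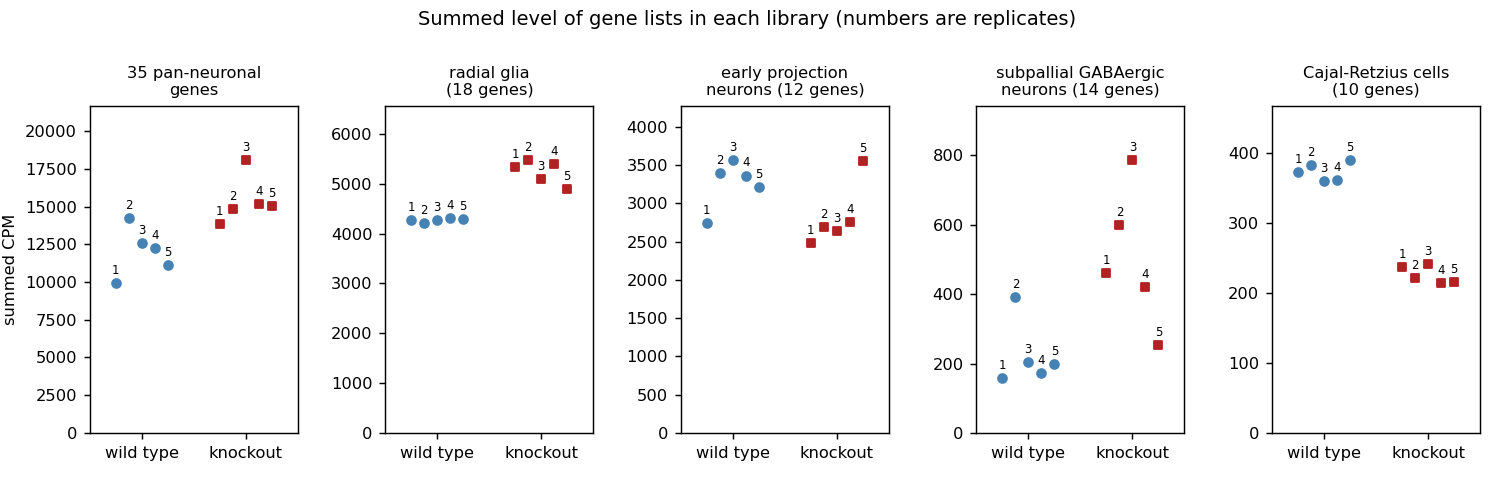
Summed CPM of the 35 neuronal genes and of 4 marker lists in each library, blue circles for wild type and red squares for knockout, numbered by replicate. The subpallial list has the same highest library within each genotype as the 35 genes (knockout 3 and wild type 2), while radial glia sums separate the genotypes with little spread among wild types.

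Markers of GABAergic neurons of the subpallium, the neighbouring ventral telencephalon, were highest in the same libraries as the 35 genes. Their 14 members summed to 461, 600, 786, 422 and 254 CPM in knockout 1 to 5 and to 158, 393, 204, 173 and 198 CPM in wild type 1 to 5. Of the 13 tested 7 were higher and 0 lower by edgeR (0 lower at an unadjusted p under 0.05, with DESeq2 or with limma-voom), with a median log2 fold change of 1.75. Over all genes, 12.9% were called higher and 9.33% lower. The transcription factor Dlx5 stood at 20.5 ± 7.54 against 6.03 ± 3.37 CPM (edgeR adjusted p = 0.0104, log2 fold change 1.75). No marker of this list separated the groups completely, while 9.63% of all genes had every knockout library above every wild type. Knockout 3 and wild type 2 were highest in their groups for this sum as for the 35 genes, and wild type 1 was lowest. Knockout 5 differed, with a subpallial sum of 254 CPM, below the 393 CPM of wild type 2, beside a sum of 15039 CPM for the 35 genes, above every wild type. The part of subpallial neurons in the neuronal genes' rise was not tested.

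Other neighbouring tissues were counted in the same way, again beside 12.9% of all genes called higher and 9.33% lower. These shares are for edgeR at an adjusted p under 0.05. No share of all genes is given for counts at an unadjusted p under 0.05, so those counts cannot be set against 12.9% or 9.33%. Of 18163 genes DESeq2 called 2564 higher and 1961 lower, and limma-voom 2507 and 1899. Peripheral sensory and neural crest markers had 0 of 9 tested genes higher by edgeR (3 at an unadjusted p under 0.05, 2 with DESeq2 and 2 with limma-voom) and 1 lower. They had sums of 195 to 256 CPM in knockout against 197 to 246 CPM in wild type. Diencephalic markers had 2 of 9 higher and 0 lower by edgeR (2 lower at an unadjusted p under 0.05, 2 with DESeq2 and 0 with limma-voom). Their sums were 141 to 223 CPM against 164 to 313 CPM. Choroid plexus markers, of the secretory epithelium at the dorsal midline, fell in 8 of 10 cases and summed to 73.4 to 110 CPM against 306 to 362 CPM. Of 24 endothelial, microglial and blood genes 0 passed by edgeR, 5 were lower and 1 higher at an unadjusted p under 0.05, and 1 was lower with DESeq2 and 0 with limma-voom. Blood genes ranged from 2356 to 7435 CPM in knockout and from 2266 to 5501 CPM in wild type. Of 8 meningeal genes 0 were higher and 2 lower, by edgeR, DESeq2 and limma-voom alike. Some genes stand in more than 1 list: Isl1 (subpallial and peripheral), Prph (cytoskeletal and peripheral), Lhx5 (Cajal-Retzius and diencephalic) and Otx2 (diencephalic and choroid plexus).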

How the data were processed

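The authors deposited raw counts per Ensembl gene for each of 10 libraries. Per the labels' protocols, total RNA was extracted with the NucleoSpin RNA kit and Illumina libraries were made from it. Per the submitters' processing notes, bcl2fastq 2.20, STAR 2.7.8a and featureCounts 1.6.3-p1 were used, and the builds named were GRCm39 and rn6; strand setting, annotation release and the handling of shared reads are not given in the sources used here. Symbols were found for 52073 of 56748 identifiers, and exon lengths came from GENCODE M21 (GRCm38). No 2 libraries of the same genotype matched within sampling noise (chi-square per gene 9.06 to 23.7 over 20 pairs).

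Genes were filtered with filterByExpr (minimum count 10), which left 18163, scaled by TMM and tested with edgeR's robust quasi-likelihood F test (version 4.0.16 under R 4.3.3, genotype as the only term, two-sided, Benjamini-Hochberg over all genes tested, threshold 0.05). Standard errors were derived from the F statistic. Robust estimation followed earlier processing of these data and was taken after both versions had been seen. DESeq2 1.42.0, limma-voom (limma 3.58.1), other scalings, blocks and subsets of libraries were alternatives. The fit was checked on simulated counts. The 35 genes and all lists were chosen with earlier results of these data known. From each list up to 3 genes past the threshold with the smallest p and at least 1 CPM were eligible to be named. Motifs were chosen after the promoter table was at hand.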

Additional observations from a re-analysis of the deposited data

Results flagged for a closer look

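In each genotype, the gap between the most extreme library and its neighbour was compared with the range of the 5 libraries for each of the 35 genes, and 7 of 70 groups exceeded Dixon's 95% critical value. Chance flags about 1 in 20 groups, and the genes vary together, so these are not 7 separate events. Knockout 3 accounted for 5 of them. Gap43 stood at 133 CPM there against 97.4 in the next library (gap 0.846 of the range), Stmn2 at 247 against 180 CPM (0.753), Ina at 407 against 293 CPM (0.732), Mapt at 353 against 226 CPM (0.728) and Syn1 at 50.8 against 36.4 CPM (0.726). Wild type 2 stood out for Ina, at 231 against 154 CPM (0.726). Knockout 1 was low for Vamp2, at 137 CPM against 152 CPM (0.743). With knockout 3 and wild type 1 left out, Stmn2, Ina and Syn1 were still called higher, and Gap43, Mapt and Vamp2 still did not pass. That fit kept wild type 2 and knockout 1, which were flagged for Ina and Vamp2. With knockout 1 and 3 and wild type 1 and 2 all left out, Gap43 (log2 fold change 0.31, edgeR adjusted p = 0.0118) and Mapt (0.77, edgeR adjusted p = 0.00325) passed. Vamp2 passed without knockout 1 (0.25, edgeR adjusted p = 0.0372). So some of these calls depend on the libraries kept.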

How the results depend on the processing

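The count of genes called, 4039 of all tested, was 2182 at a threshold of 0.01, 639 in the small libraries alone, 516 with title code 241022 alone and 1561 with title code 14922 alone. Members higher, 18 in all libraries, were 3 in the small libraries and 1 with code 241022, and 1 member was lower in the large libraries. With single libraries left out the count higher ran from 14 to 25, and elsewhere from 12 (threshold 0.01) over 13 (no filter, and Y-linked expression as a covariate) to 23 (DESeq2), with 17 under a size class block, 19 under a title code block and 20 without robust estimation. Among all genes tested, 1992 of 36757 were higher without the filter. Of 18163, 1918 were higher with the Y-linked covariate and 2564 with DESeq2. Under the size class and title code blocks 2196 and 2297 were higher, and without robust estimation 2372. Mapt and Syt1 were the genes added without robust estimation, and DESeq2 added Tuba1a, Mapt, L1cam, Syt1 and Vamp2. Dcx, Stmn2, Map1b and Nefm were lost both without the filter and with the Y-linked covariate. Stmn3 was lost without the filter and Syp with the covariate. The interaction between genotype and title code gave 322 genes and 0 members with the filter on low counts, and 917 genes and 4 members (Syt1, Nefl, Mapt and Ina) without it. In the libraries used, this interaction is the same contrast as size class. The unfiltered fit gave all genes 1 shared spread (145076 degrees of freedom against at most 8.84).

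Values that changed sign were all of members that did not pass over all libraries. In the large libraries they were Map2 -0.043, Elavl2 -0.17, Elavl4 -0.11, Rbfox3 -0.26, Snap25 -0.039 and Dpysl3 -0.097. With code 241022 they were Map2 -0.048, Elavl4 -0.019, Rbfox3 -0.10 and Snap25 -0.043. With knockout 3 and wild type 1 left out they were Map2 -0.017, Elavl4 -0.0024, Rbfox3 -0.015 and Dpysl3 -0.058, and with all 4 outer libraries left out Tubb2a -0.17. Leaving out 1 library gave Elavl2 values from -0.0036 to 0.11 and a difference of the Elavl4 to Elavl2 log2 ratio from -0.024 to 0.029. Fewer libraries enter each subset; beyond that the cause was not tested. No paired analysis was possible because the replicate numbers were given in accession order and pair no libraries. Title codes are shared between the genotypes, and the block above used them, but their meaning is not given. Nefl, the member with the lowest level, had 63 to 253 counts per library, and whether depth limits its result was not tested.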
